A study of Rattus norvegicus with 9 samples.

Results

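The 54 genes described here are the measured rat members of the solute carrier families Slc1, Slc3, Slc6, Slc7, Slc36, Slc38 and Slc43, which hold most carriers of amino acids in the plasma membrane and several in the lysosome. They were taken by symbol from the 14497 genes that had a probe set naming a single gene, leaving out Slc38a4, and no measured value entered the choice. The set comprised 7 genes of Slc1, 2 of Slc3, 16 of Slc6, 15 of Slc7, 4 of Slc36, 7 of Slc38 and 3 of Slc43. One of them, Slc7a6os, is a gene on the strand opposite Slc7a6 and no carrier, so 53 encode carriers or their heavy chains. Not all of these move amino acids, since Slc6a2, Slc6a3 and Slc6a4 carry monoamines, Slc6a8 creatine and Slc43a3 purine nucleobases. Each gene was read by 1 probe set, and no probe set named one of these genes together with another.

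Freshly isolated liver cells of F344 rats were compared in 3 groups of 3 preparations, which the labels call biological replicates. Adult hepatocytes came from rats 5 to 6 weeks old by collagenase perfusion in 2 steps. The fetal cells came from livers at embryonic day 19 and were purified with antibodies against leucine aminopeptidase (LAP), a surface protein of hepatocytes, and OC.2, a surface marker of bile duct cells. They were LAP+/OC.2- in one group and LAP+/OC.2+ in the other. The isolation text is the same for both fetal groups and names a positive selection for both markers, and the brief descriptions of OC.2+ preparations are written LAP-OC2+, so the grouping rests on the sample titles, which match the cell type labels. No transgene, deletion or drug is named for any group, and the number of litters or fetuses behind a preparation is not stated by the labels.

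Many amino acid carriers are exchangers, which swap one amino acid for another, or pumps, which use the sodium or proton gradient to load the cell. Hepatocytes take up glutamine, alanine, arginine and glutamate from portal blood for urea synthesis, gluconeogenesis and protein synthesis, and perivenous hepatocytes return nitrogen to the blood as glutamine. Growing and dividing cells, including the blood precursors that fill the fetal liver, commonly rely on another set of carriers. These are Slc1a5 and Slc38a1 for glutamine and the pair Slc7a5 and Slc3a2 for leucine and other large neutral amino acids.

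All values are log2 of the deposited intensities, each gene is compared only with itself across arrays, and a difference of 1 on this scale is a 2-fold change. A gene was called when limma's adjusted p over all 14497 genes was under 0.05. The median intensities of the arrays, on the linear scale, were 79.5 to 81.0 in adult and 86.5 to 89.7 in fetal preparations. Correlations over genes were 0.989 to 0.994 within groups, 0.855 to 0.877 between adult and OC.2-, 0.869 to 0.887 between the fetal groups and 0.714 to 0.731 between adult and OC.2+. The summed intensity of 8 hepatocyte markers (such as Alb and Hnf4a) was 67644 to 73856 in adult, 60515 to 65126 in OC.2- and 26192 to 28965 in OC.2+ preparations, and 8 of 8 were lower in the OC.2+ than in the OC.2- cells. Sums over 8 erythroid markers were 859 to 883, 13619 to 16529 and 33846 to 34410 in the same order, and sums over 8 granulocyte markers were 433 to 471, 490 to 550 and 16839 to 19278. Markers of mast cells and basophils (5 genes) summed to 216 to 247, 7431 to 7989 and 1723 to 1884, and 4 endothelial markers summed to 526 to 682, 2529 to 3299 and 460 to 478. In the fetal groups the mast cell and basophil sum was mostly 1 gene, Hdc. On the log2 scale Hdc read 12.81 to 12.91 in OC.2- and 10.29 to 10.48 in OC.2+ preparations. The highest value of any other gene in that sum was 7.46 (Ms4a2 in OC.2+). The 5 ductal markers, the class that OC.2 is meant to mark, summed to 301 to 315, 339 to 372 and 325 to 336, and 1 of them was called between the fetal groups, lower in OC.2+ cells. These marker sums moved with the groups in every comparison below, and their part in the transporter differences was not tested. In bulk preparations such as these, fewer cells of a type and less RNA per cell cannot be told apart.

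In OC.2+ compared with OC.2- fetal cells, the glutamine carriers Slc38a5, Slc38a1 and Slc1a5, the proline carrier Slc6a20a, the glycine carrier Slc6a9, the nucleobase carrier Slc43a3 and the arginine carrier Slc7a1 were higher, by 2.35-fold to 3.83-fold. The hepatocyte carriers Slc38a3 (glutamine), Slc6a13 (GABA and taurine) and Slc7a2 (arginine), and also Slc36a2 and Slc1a4, were lower, by 2.01-fold to 8.48-fold. Of the 54 genes, 24 were called (44.4%, against 38.5% of all genes), 16 higher (29.6%, against 20.3%) and 8 lower (14.8%, against 18.2%). At 2-fold or more, 7 were higher (13.0%, against 3.69%) and 5 were lower (9.26%, against 6.63%). The arrays of the groups did not overlap for 28 genes (51.9%, against 46.5%). The median difference was 0.05 over the 54 genes and 0.04 over all genes, so the families did not move one way. With cyclic loess the split was 15 higher and 11 lower, and that median was -0.005.

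Compared with adult hepatocytes, OC.2- fetal cells had more Slc36a2, Slc7a5, Slc38a5 and Slc1a5 and less Slc6a6, Slc1a2, Slc6a9 and Slc7a2, each by at least 2-fold. In this comparison 31 genes were called (57.4%, against 44.5% of all genes), 21 higher (38.9%, against 23.7%) and 10 lower (18.5%, against 20.9%). The groups' arrays did not overlap for 31 genes (57.4%, against 51.4%). The median difference of the 54 genes was 0.18, against 0.07 over all genes. Part of this moves with the scaling: median centring lowered the median of all genes by 0.13, and gave 13 higher and 11 lower, and cyclic loess gave 15 and 12. At 2-fold or more, 4 were higher (7.41%, against 4.06%) and 4 lower (7.41%, against 6.58%).

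OC.2+ fetal cells set against adult hepatocytes showed 34 called genes (63.0%, against 55.4% of all genes), of which 25 were higher (46.3%, against 32.0%) and 9 lower (16.7%, against 23.4%). Slc38a5, Slc1a5, Slc7a5 and Slc38a1 were the highest by fold, at 6.11-fold to 9.33-fold, and Slc6a13, Slc7a2 and Slc38a3 the lowest, at 10.6-fold to 11.9-fold. For 37 genes the arrays of these groups did not overlap (68.5%, against 62.2%). The median difference was 0.20, against 0.11 over all genes. Cyclic loess lowered the median of all genes by 0.14, and it gave 17 higher and 10 lower. At 2-fold or more, 9 genes were higher (16.7%, against 7.82%) and 6 lower (11.1%, against 11.1%). The comparisons share arrays, 2 by 2, so their values are given side by side below and not as separate support. Among the 54 genes the shares called in either direction, and the shares called higher, lay above those of all genes. Shares called lower, without the 2-fold limit, lay below those of all genes. The 54 were not tested as a set.

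**Figure D1:**
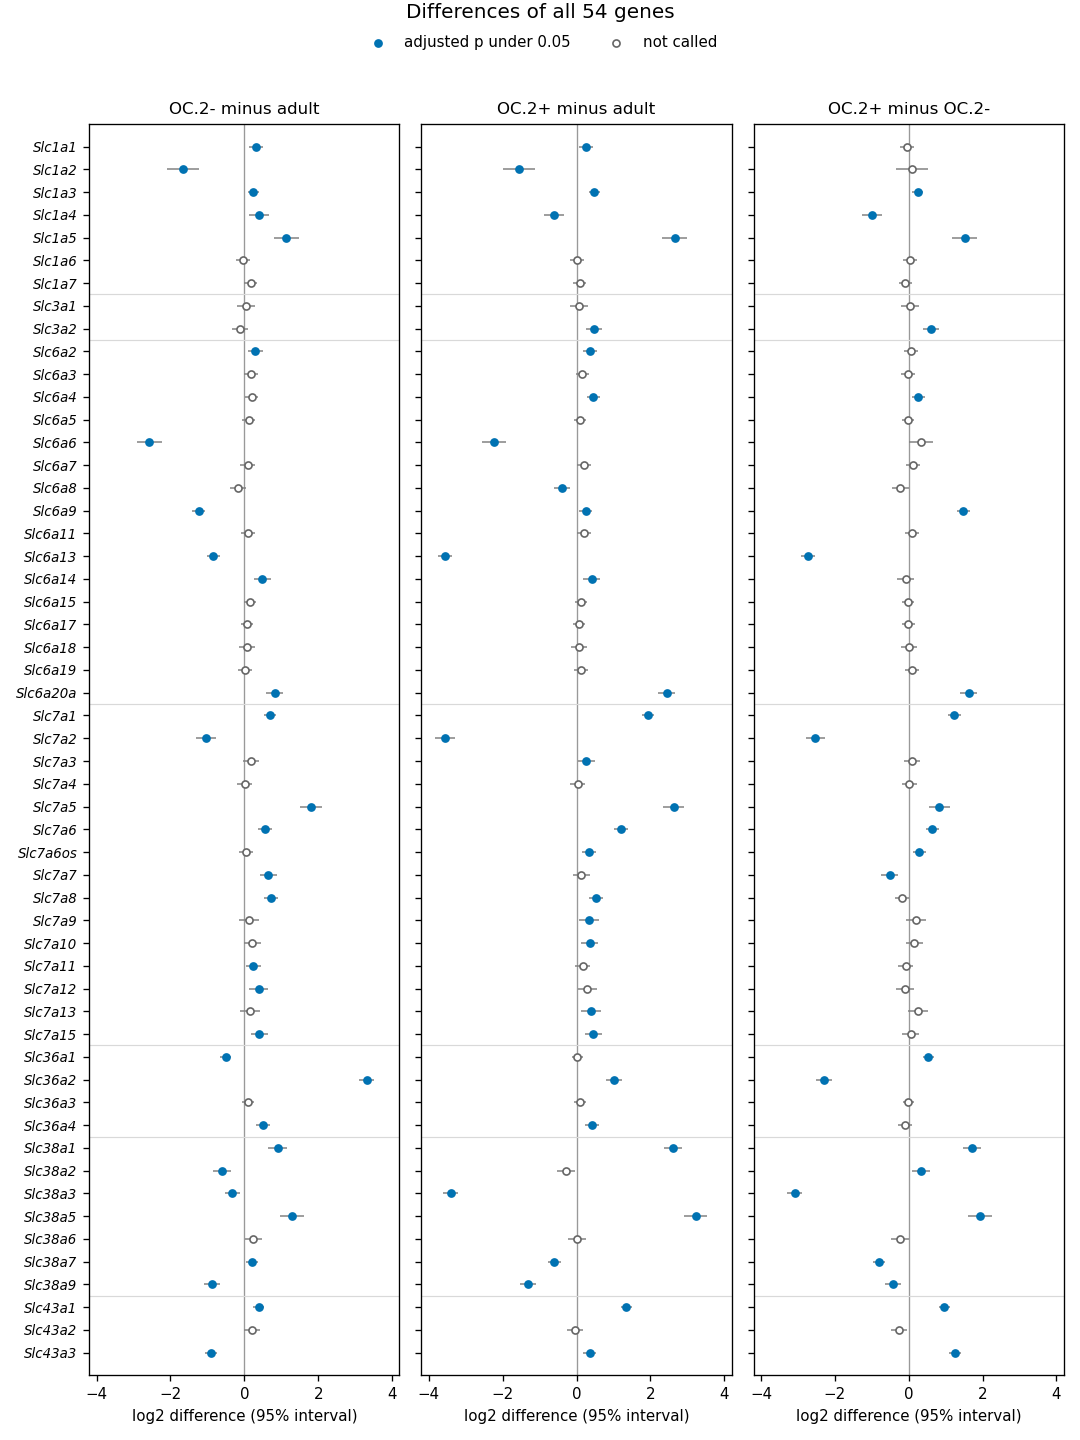
Log2 difference of each of the 54 genes in the 3 comparisons (one panel each, with its 95% interval from limma), filled points marking an adjusted p under 0.05. Most genes lie near 0, and the wide ends of each panel are held by few genes, such as Slc38a3 at -3.08 and Slc38a5 at 1.94 between the fetal groups.

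The promoters of some of these genes carry motifs known from the control of amino acid supply, and they are shown here so that the values below can be read beside them. RefSeq promoter windows on the assembly GRCr8, from 250 bases before the transcription start to 50 after it, were matched for 42 of the 54 genes. Slc38a3, Slc6a13, Slc7a2, Slc1a5 and Slc43a3 were among the genes without a window, so whether they hold these motifs was not searched. The core of the amino acid response element, TGATGNAA, which is bound by Atf4 when amino acids are short, was searched on both strands. It stood in 3 of the 42 windows (7.14%), in 1048 of all 27457 windows (3.82%) and in 356 of the 11946 windows of genes on the array (2.98%). Capitals mark the match, each run reads 5′ to 3′ along the gene, and the runs come from chr7:129681516-129681563 (minus strand), chr12:11664438-11664485 (plus strand) and chr14:98761770-98761812 (minus strand, with the core on the opposite strand).
Slc38a1: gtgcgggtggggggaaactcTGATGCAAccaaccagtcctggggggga
Slc7a1: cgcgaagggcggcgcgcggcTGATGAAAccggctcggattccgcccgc
Slc1a4: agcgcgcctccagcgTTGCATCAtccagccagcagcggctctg
Slc38a1 and Slc7a1 were higher in the OC.2+ than in the OC.2- cells and Slc1a4 was lower, so the 3 genes with this match did not move together.

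The E-box CACGTG, a palindrome read by Myc and by the lysosomal regulators Tfeb and Tfe3, was searched after the promoters had been looked at. It stood in 7 of the 42 windows (16.7%), in 1826 of all 27457 (6.65%) and in 942 of the 11946 (7.89%). The runs below come from chr19:66872566-66872611 (minus strand), chr3:90327211-90327256 (plus strand), chr10:39824974-39825019 (plus strand) and chr19:9215332-9215377 (plus strand), again with the match in capitals.
Slc7a5: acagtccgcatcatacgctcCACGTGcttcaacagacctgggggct
Slc43a1: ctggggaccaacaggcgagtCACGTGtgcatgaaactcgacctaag
Slc36a1: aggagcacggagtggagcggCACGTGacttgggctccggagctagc
Slc38a7: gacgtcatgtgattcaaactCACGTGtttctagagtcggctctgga
The first pair are plasma membrane carriers of large neutral amino acids and the second pair lysosomal carriers. Slc36a1 held another E-box nearer its start, at chr10:39825002-39825034, and the remaining matches were in Slc1a4, Slc1a6 and Slc1a7. Among the 4 genes shown, Slc7a5, Slc43a1 and Slc36a1 were higher in the OC.2+ than in the OC.2- cells and Slc38a7 was lower. Of the other 3, Slc1a4 was lower and Slc1a6 and Slc1a7 were not called (0.04 and -0.09, limma adjusted p = 0.781 and 0.444). The 7 thus held 3 higher and 2 lower (all genes 20.3% and 18.2%), and 7 genes are too few to set against those shares. A match is a run of letters and no measured binding site.

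Glutamine carriers included both the lowest and the highest difference between the fetal groups. Slc38a3 (SNAT3), the sodium-coupled glutamine, asparagine and histidine carrier of hepatocytes, read 11.92, 12.02 and 11.95 in adult, 11.66, 11.73 and 11.52 in OC.2-, and 8.63, 8.37 and 8.65 in OC.2+ preparations. All OC.2+ arrays lay far below every other array, while the OC.2- arrays lay just below the adult ones. Slc38a3 was 8.48-fold lower in the OC.2+ than in the OC.2- cells (95% interval 7.37 to 9.76, limma adjusted p = 1.03e-10) and 10.6-fold lower than in adult cells (9.25 to 12.2, adjusted p = 4.14e-12). The OC.2- to adult difference was -0.33 ± 0.09 (SE, limma adjusted p = 0.0121), and after quantile normalization it was -0.23 with an adjusted p of 0.055.

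Slc38a1 (SNAT1), a sodium-coupled glutamine carrier of growing and neural cells, ran the other way. It read 6.16, 5.77 and 5.86 in adult, 7.01, 6.84 and 6.63 in OC.2- and 8.53, 8.51 and 8.58 in OC.2+ preparations, so the groups formed 3 separate steps. It was 3.28-fold higher in the OC.2+ than in the OC.2- cells (2.76 to 3.89, limma adjusted p = 6.45e-08) and 1.87-fold higher in OC.2- than in adult cells (adjusted p = 2.69e-05). Slc38a5 (SNAT5), another carrier of glutamine, serine and glycine, read 4.71, 5.02 and 4.36 in adult, 5.88, 5.93 and 6.14 in OC.2- and 7.95, 7.73 and 8.08 in OC.2+ preparations. The same 3 steps without overlap were seen, although the adult arrays and the OC.2- arrays all lay below their array medians. Slc38a5 was 3.83-fold higher in the OC.2+ than in the OC.2- cells (3.06 to 4.79, limma adjusted p = 2.35e-07) and 2.44-fold higher in OC.2- than in adult cells (1.95 to 3.05, adjusted p = 1.12e-05).

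Slc1a5 (ASCT2), the exchanger that brings glutamine into many dividing cells, read 5.84, 6.46 and 5.72 in adult, 7.23, 6.99 and 7.23 in OC.2- and 8.63, 8.66 and 8.70 in OC.2+ preparations. The OC.2+ arrays were the tightest and the highest, and adult replicate 2 stood above the other adult arrays. Slc1a5 was 2.85-fold higher in the OC.2+ than in the OC.2- cells (2.26 to 3.61, limma adjusted p = 3.96e-06) and 2.21-fold higher in OC.2- than in adult cells (1.75 to 2.79, adjusted p = 5.04e-05). Its relative Slc1a4 (ASCT1), which exchanges alanine, serine and cysteine, read 7.10, 7.61 and 7.59 in adult, 7.91, 7.88 and 7.68 in OC.2- and 6.78, 6.82 and 6.85 in OC.2+ preparations. Here the OC.2+ arrays were the lowest of all, 2.01-fold below OC.2- (1.67 to 2.42, limma adjusted p = 2.12e-05) and 1.53-fold below adult (adjusted p = 0.000895). The smaller OC.2- to adult difference of 0.39 ± 0.12 (SE, limma adjusted p = 0.0216) fell to 0.23 without adult replicate 1 (adjusted p = 0.0763), and its adjusted p was 0.0758 without OC.2- replicate 1, 0.064 without OC.2- replicate 2, 0.0583 in a fit of those groups alone and 0.113 after median centring.

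Slc38a2 (SNAT2), the carrier of small neutral amino acids that cells raise when starved of them, read 9.89, 10.28 and 10.33 in adult, 9.67, 9.60 and 9.42 in OC.2- and 9.87, 9.83 and 9.96 in OC.2+ preparations. The OC.2- arrays were the lowest, 1.52-fold below adult (limma adjusted p = 0.000727), and the OC.2+ arrays lay between. The OC.2+ to OC.2- difference of 0.32 had a limma adjusted p of 0.0395. It was 0.0678 after cyclic loess, and from 0.0672 to 0.137 when OC.2- replicate 2 or 3 or any 1 OC.2+ replicate was left out. The OC.2+ to adult difference was -0.28 (limma adjusted p = 0.0512), and it was -0.42 and called when adult replicate 1 was left out (0.00268), and also called without OC.2- replicate 3 (0.0476), after median centring (0.00819) and after cyclic loess (0.00453). After quantile normalization it was 0.02 (adjusted p = 0.917), with the sign turned. Of the 7 Slc38 genes in this set, which leaves out Slc38a4, 3 were higher and 3 lower between the fetal groups (all genes 20.3% and 18.2%). They were 3 and 3 in OC.2- against adult (23.7% and 20.9%), and 2 and 3 in OC.2+ against adult (32.0% and 23.4%). Counts among 7 genes are too few to set against those shares.

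Large neutral amino acids enter cells mainly through light chains of the Slc7 family bound to the heavy chain Slc3a2, or through Slc43a1 and Slc43a2. Slc7a5 (LAT1), the leucine exchanger of growing cells, read 6.74, 7.40 and 6.91 in adult, 8.82 on each OC.2- array and 9.63, 9.57 and 9.75 in OC.2+ preparations. The groups did not overlap, and the 3 identical OC.2- values are as deposited, which lowers the pooled spread of this gene. Slc7a5 was 3.48-fold higher in OC.2- than in adult cells (2.84 to 4.27, limma adjusted p = 2.05e-07) and 1.78-fold higher in the OC.2+ than in the OC.2- cells (1.45 to 2.18, adjusted p = 0.000235). Exact ties of this kind are common in the deposited values: 25 of the 54 genes (46.3%) and 12067 rows of the table (41.9%) had at least 2 arrays at the same value.

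Slc3a2 (CD98, 4F2hc), the heavy chain that carries Slc7a5 to the membrane, read 9.86, 10.21 and 10.11 in adult, 9.96, 9.84 and 10.01 in OC.2- and 10.59, 10.43 and 10.58 in OC.2+ preparations. Adult and OC.2- arrays overlapped (difference -0.12 ± 0.10, SE, limma adjusted p = 0.346), and the sign depended on the scaling. After cyclic loess the value was -0.29 (adjusted p = 0.0481), and after quantile normalization it was 0.11 (0.458). All OC.2+ arrays were higher, 1.51-fold over OC.2- (1.3 to 1.75, limma adjusted p = 0.0003) and 1.39-fold over adult (1.19 to 1.61, adjusted p = 0.00127). So the light chain Slc7a5 differed in all comparisons, and its heavy chain was called in those that involve OC.2+ cells.

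Slc43a1 (LAT3), which needs no heavy chain, read 8.63, 8.56 and 8.58 in adult, 8.97, 8.99 and 8.97 in OC.2- and 10.02, 9.87 and 9.93 in OC.2+ preparations. Again the groups formed 3 steps, with OC.2+ 1.95-fold above OC.2- (1.75 to 2.17, limma adjusted p = 1.79e-07) and OC.2- 1.31-fold above adult (adjusted p = 0.000684). Slc7a6 (y+LAT2), an exchanger of cationic for neutral amino acids, rose by 1.56-fold from OC.2- to OC.2+ (limma adjusted p = 3.98e-05) and was 1.47-fold higher in OC.2- than in adult cells (adjusted p = 0.000132). The companions Slc7a7 (y+LAT1) and Slc7a8 (LAT2) had their highest arrays among the OC.2- preparations. Slc7a7 was 1.57-fold higher in OC.2- than in adult cells (limma adjusted p = 0.000283) and 1.43-fold lower in the OC.2+ than in the OC.2- cells (adjusted p = 0.00176). Slc7a8 was 1.65-fold higher in OC.2- and 1.45-fold higher in OC.2+ than in adult cells (limma adjusted p = 2.21e-05 and 0.0002). Its difference between the fetal groups was -0.19 (adjusted p = 0.132). That value was -0.27 without OC.2- replicate 1 (adjusted p = 0.0305) and -0.24 after cyclic loess (0.0397). Slc43a2 (LAT4) was not called in any comparison, with differences of 0.21, -0.25 and -0.04 in OC.2- against adult, OC.2+ against OC.2- and OC.2+ against adult (limma adjusted p = 0.109, 0.0652 and 0.732). Without OC.2- replicate 2 the first of these was 0.33 (adjusted p = 0.0112) and the second was -0.37 (adjusted p = 0.00575). The second was also called after cyclic loess (-0.33, 0.0157) and quantile normalization (-0.28, 0.0491). It was called as well with array weights (0.0464) and with either dim filter (0.0445 and 0.0493).

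**Figure D2:**
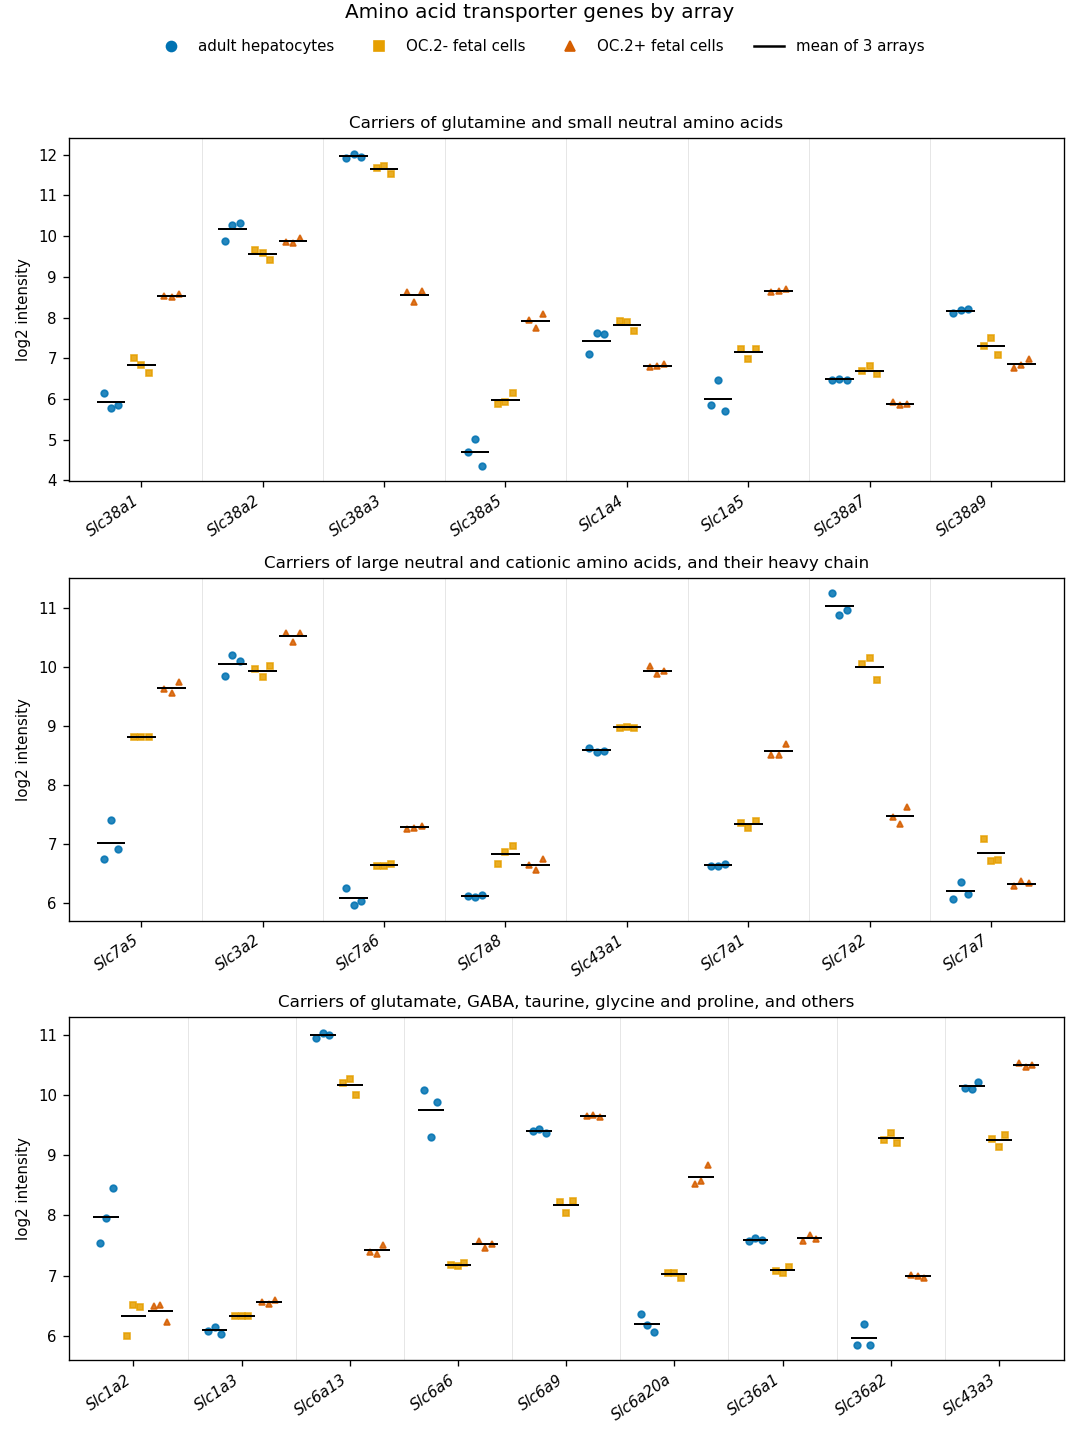
Log2 intensity of selected transporter genes on each of the 9 arrays, coloured by group, with the mean of the 3 arrays as a black line. Slc38a3, Slc6a13 and Slc7a2 drop in the OC.2+ arrays, Slc38a1, Slc38a5, Slc1a5 and Slc7a1 climb in steps from adult to OC.2- to OC.2+, and Slc36a2 peaks in the OC.2- arrays.

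The cationic amino acid carriers Slc7a1 and Slc7a2 went in opposite directions. Slc7a2 (CAT2), the arginine and lysine carrier of adult liver, read 11.25, 10.89 and 10.97 in adult, 10.05, 10.16 and 9.78 in OC.2- and 7.45, 7.34 and 7.62 in OC.2+ preparations. No arrays overlapped between groups, and the step from OC.2- to OC.2+ was the larger. Slc7a2 was 2.06-fold lower in OC.2- than in adult cells (1.71 to 2.47, limma adjusted p = 1.26e-05) and 5.76-fold lower in the OC.2+ than in the OC.2- cells (4.8 to 6.92, adjusted p = 3.17e-09). Slc7a1 (CAT1), the cationic carrier of most dividing cells, read 6.62, 6.63 and 6.66 in adult, 7.35, 7.27 and 7.38 in OC.2- and 8.51, 8.50 and 8.70 in OC.2+ preparations. It rose where Slc7a2 fell, by 1.62-fold from adult to OC.2- (1.44 to 1.83, limma adjusted p = 9.08e-06) and by 2.35-fold from OC.2- to OC.2+ (2.09 to 2.65, adjusted p = 4.14e-08).

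Carriers of cystine were near the dim end of the arrays. Slc3a1 and Slc7a9, the pair that takes up cystine in kidney and gut, and Slc7a11 (xCT), the cystine and glutamate exchanger that feeds glutathione synthesis, lay below the array median on all 9 arrays. Slc3a1 differed by no more than 0.07 in any comparison (limma adjusted p = 0.629 to 0.905). Slc7a9 was higher by 0.33 in OC.2+ than in adult cells (limma adjusted p = 0.0379). That call was lost without adult replicate 1 (0.23, adjusted p = 0.163), OC.2+ replicate 1 (0.37, 0.0572) or OC.2+ replicate 3 (0.24, 0.16), and under all 3 scalings. Slc7a11 was higher by 0.25 in OC.2- than in adult cells (limma adjusted p = 0.0491), and lost that call when any 1 of the 9 arrays except OC.2- replicate 2 was left out, with the lowest of these values, 0.15 (adjusted p = 0.21), without OC.2- replicate 1. It was also lost under the 3 scalings, at 0.12 to 0.14 (adjusted p = 0.25 to 0.364). Slc7a10 (Asc-1), which carries small neutral amino acids, was higher by 0.36 in OC.2+ than in adult cells (limma adjusted p = 0.0105). Its adjusted p was 0.0533 without OC.2+ replicate 2 and 0.0581 to 0.092 under the 3 scalings, and without adult replicate 2 its OC.2- to adult difference of 0.22 (adjusted p = 0.113) became 0.34 (adjusted p = 0.0104).

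Among the glutamate carriers, Slc1a2 (GLT-1), which takes glutamate into perivenous hepatocytes and astrocytes, read 7.54, 7.95 and 8.45 in adult, 6.00, 6.51 and 6.48 in OC.2- and 6.49, 6.52 and 6.23 in OC.2+ preparations. The adult arrays were spread over almost 1 log2 unit but all lay above the fetal ones, and the fetal groups overlapped. Slc1a2 was 3.14-fold lower in OC.2- and 2.96-fold lower in OC.2+ than in adult cells (2.33 to 4.23 and 2.2 to 3.99, limma adjusted p = 1.57e-05 and 1.53e-05). The fetal groups differed by 0.09 ± 0.20 (SE, limma adjusted p = 0.803), and by -0.08 without OC.2- replicate 1. Slc1a1 and Slc1a3, the other glutamate carriers, showed small differences: Slc1a3 was higher by 0.24 in OC.2- than in adult and by 0.24 in the OC.2+ than in the OC.2- cells (limma adjusted p = 0.0141 and 0.0158). The latter had an adjusted p of 0.0518 without OC.2+ replicate 3, and the former was not called under any of the 3 scalings. In OC.2+ against adult cells Slc1a3 was higher by 0.48 without overlap (limma adjusted p = 6.37e-05, and at most 0.00145 under the alternatives). For Slc1a3 the 3 OC.2- arrays held the same deposited value, 6.33, which lowers its pooled spread, as for Slc7a5. Slc1a1 was higher by 0.31 in OC.2- and 0.26 in OC.2+ than in adult cells (limma adjusted p = 0.00942 and 0.0199). Neither was called under the 3 scalings, and the second was 0.21 with adult replicate 2 left out (adjusted p = 0.0771) and also 0.21 without OC.2+ replicate 3 (0.0837).

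The Slc6 family held the carriers of taurine, glycine, proline and GABA with the widest spread between groups. Slc6a13 (GAT2), which brings GABA and taurine into hepatocytes, read 10.95, 11.03 and 11.00 in adult, 10.20, 10.27 and 10.005 in OC.2- and 7.40, 7.35 and 7.51 in OC.2+ preparations. As with Slc38a3 and Slc7a2, the OC.2+ arrays stood well below the rest. Slc6a13 was 6.66-fold lower in the OC.2+ than in the OC.2- cells (5.85 to 7.58, limma adjusted p = 1.34e-10) and 1.78-fold lower in OC.2- than in adult cells (1.57 to 2.03, adjusted p = 3.93e-06). Slc6a6 (TauT), the main taurine pump, read 10.09, 9.30 and 9.87 in adult, 7.17, 7.17 and 7.21 in OC.2- and 7.57, 7.46 and 7.52 in OC.2+ preparations. Every fetal array lay below every adult array, with OC.2- 5.93-fold below adult (4.72 to 7.46, limma adjusted p = 2.04e-08) and OC.2+ 4.7-fold below adult (3.74 to 5.91, adjusted p = 3.33e-08). The fetal groups did not overlap, yet their difference of 0.34 ± 0.15 (SE) was not called (limma adjusted p = 0.107). It was called in a fit of the fetal arrays alone (adjusted p = 0.00345) and without adult replicate 2 (0.00487).

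Slc6a9 (GlyT1), the glycine carrier that supplies haem synthesis in red cell precursors, read 9.40, 9.44 and 9.37 in adult, 8.22, 8.03 and 8.24 in OC.2- and 9.65, 9.67 and 9.63 in OC.2+ preparations. The OC.2- arrays were the lowest of the 3 groups. The erythroid marker sum was lowest in adult and highest in OC.2+ preparations, and its part in this result was not tested. Slc6a9 was 2.36-fold lower in OC.2- than in adult cells (2.1 to 2.65, limma adjusted p = 3.57e-08) and 2.8-fold higher in the OC.2+ than in the OC.2- cells (2.49 to 3.14, adjusted p = 6.89e-09). Its OC.2+ to adult difference of 0.24 (limma adjusted p = 0.0174) had an adjusted p of 0.0502 without OC.2+ replicate 2, 0.271 after median centring and 0.228 after cyclic loess. Slc6a20a (SIT1), which carries proline and other imino acids, read 6.36, 6.17 and 6.07 in adult, 7.05, 7.05 and 6.97 in OC.2- and 8.51, 8.57 and 8.83 in OC.2+ preparations. It took the same upward steps as Slc7a1, with OC.2+ 3.07-fold above OC.2- (2.64 to 3.58, limma adjusted p = 3.52e-08) and OC.2- 1.77-fold above adult (adjusted p = 2.13e-05).

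Slc6a8, the creatine carrier, was 1.32-fold lower in OC.2+ than in adult cells (limma adjusted p = 0.00564). Its OC.2- to adult difference of -0.17 (adjusted p = 0.211) was called under all 3 scalings, at -0.30 to -0.27. Between the fetal groups it differed by -0.23 (adjusted p = 0.11), and by -0.32 without OC.2+ replicate 2 (adjusted p = 0.0385). That difference was also called after cyclic loess (-0.28, 0.0402) and with array weights (-0.27, 0.0468). Slc6a19 (B0AT1), the neutral carrier of gut and kidney, was below the array median on all 9 arrays and differed by 0.03 to 0.12 (limma adjusted p = 0.245 to 0.802). Slc6a2 and Slc6a4, the noradrenaline and serotonin carriers, lie outside the rule for naming genes and are named because they were called: Slc6a2 was higher by 0.30 in OC.2- and 0.37 in OC.2+ than in adult cells, and Slc6a4 by 0.26 in the OC.2+ than in the OC.2- and 0.46 in OC.2+ than in adult cells. The first Slc6a2 value (adjusted p = 0.0147) lost its call under all 3 scalings (0.0571 to 0.137) and without adult replicate 1 (0.054) or 3 (0.0637). The first Slc6a4 value (adjusted p = 0.0221) lost it without OC.2- replicate 1 (0.1) or 2 (0.0602) or OC.2+ replicate 1 (0.07) or 2 (0.0765), all by limma. In all, 18 of the 54 genes were below the array median on all 9 arrays, 16 were above it on all 9 and 20 on some. No difference among the 18 exceeded 0.49, and with no detection call such small values cannot be told from background.

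Proton-coupled and lysosomal carriers each went their own way. Slc36a2 (PAT2), a proton-coupled carrier of glycine, alanine and proline, read 5.85, 6.20 and 5.85 in adult, 9.26, 9.37 and 9.20 in OC.2- and 7.01, 6.999 and 6.955 in OC.2+ preparations. The OC.2- arrays stood far above all others, and the OC.2+ arrays lay between without overlap. Slc36a2 was 9.91-fold higher in OC.2- than in adult cells (8.54 to 11.5, limma adjusted p = 3.19e-11) and 4.89-fold lower in the OC.2+ than in the OC.2- cells (4.22 to 5.68, adjusted p = 1.28e-09). The mast cell and basophil marker sum given above was also highest in OC.2- and lowest in adult preparations, but its 5 genes did not share that order. Between the fetal groups Hdc and Cpa3 were lower in OC.2+ cells, like Slc36a2, and Kit, Ms4a2 and Mcpt8 were higher, and the part of these cells in the result was not tested.

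Slc36a1 (PAT1), which exports amino acids from lysosomes, read 7.58, 7.62 and 7.59 in adult, 7.07, 7.05 and 7.14 in OC.2- and 7.57, 7.67 and 7.60 in OC.2+ preparations. Only the OC.2- arrays stood apart from the rest, 1.42-fold below adult (limma adjusted p = 6.49e-05) and 1.44-fold below OC.2+ (adjusted p = 4.53e-05), while OC.2+ and adult differed by 0.02 ± 0.07 (SE, adjusted p = 0.807). Slc38a9, the lysosomal arginine sensor of the mTORC1 pathway, read 8.12, 8.18 and 8.21 in adult, 7.30, 7.49 and 7.08 in OC.2- and 6.76, 6.84 and 6.97 in OC.2+ preparations. It stepped down without overlap, 1.84-fold from adult to OC.2- (limma adjusted p = 1.26e-05) and 1.35-fold from OC.2- to OC.2+ (adjusted p = 0.00406). Slc38a7 (SNAT7), which releases glutamine from lysosomes, was 1.76-fold lower in the OC.2+ than in the OC.2- cells (1.57 to 1.97, limma adjusted p = 1.46e-06) and 1.51-fold lower than in adult cells (adjusted p = 1.57e-05). Its OC.2- to adult difference of 0.22 (limma adjusted p = 0.0326) was not called under the 3 scalings, in a fit of those groups alone (0.0539), or without any 1 adult replicate, OC.2- replicate 1 or OC.2- replicate 2 (0.0545 to 0.122). Slc36a4 (PAT4), a carrier of proline and tryptophan, was 1.43-fold higher in OC.2- and 1.34-fold higher in OC.2+ than in adult cells (limma adjusted p = 0.00027 and 0.000944). Slc43a3, the nucleobase carrier, read 10.11, 10.09 and 10.22 in adult, 9.26, 9.14 and 9.33 in OC.2- and 10.53, 10.46 and 10.49 in OC.2+ preparations. It was lowest in OC.2- cells, 1.86-fold below adult (limma adjusted p = 8.4e-07) and 2.38-fold below OC.2+ (2.12 to 2.68, adjusted p = 3.52e-08). The OC.2+ to adult difference of 0.35 (adjusted p = 0.00182) was 0.18 after cyclic loess (adjusted p = 0.106).

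Enzymes that make or use the cargo of these carriers were mostly lower in fetal cells. For this and the lists below, the shares of all genes called higher and lower were 23.7% and 20.9% in OC.2- against adult cells. They were 20.3% and 18.2% between the fetal groups and 32.0% and 23.4% in OC.2+ against adult cells. Of 14 measured enzymes of glutamine, glutamate and the urea cycle, 9 were lower and 2 higher in OC.2- than in adult cells (median -1.22), 9 lower and 2 higher in the OC.2+ than in the OC.2- cells (median -0.87), and 12 lower and 2 higher in OC.2+ than in adult cells (median -1.95). Examples are Arg1, the arginase of the urea cycle, lower by 4.23-fold from adult to OC.2- and by 4.55-fold from OC.2- to OC.2+ cells, and Gls2, the liver glutaminase, lower by 4.15-fold and 2.08-fold (limma adjusted p = 7.57e-08, 4.62e-08, 3.09e-08 and 1.63e-05). Glud1, glutamate dehydrogenase, was 5.44-fold lower in the OC.2+ than in the OC.2- cells (limma adjusted p = 2.51e-10) and 1.3-fold higher in OC.2- than in adult cells (adjusted p = 0.00285), a value of 0.38 that was 0.13 after cyclic loess (adjusted p = 0.25). Oat, ornithine aminotransferase, was 5.04-fold lower in OC.2- than in adult cells (limma adjusted p = 2.75e-10) and 1.35-fold higher in the OC.2+ than in the OC.2- cells (adjusted p = 0.00125). The 2 higher against adult cells were 1 when any adult replicate or OC.2- replicate 1 or 2 was left out, and for OC.2+ cells also without OC.2+ replicate 2 or 3. For OC.2+ cells they were 0 under all 3 scalings, and for OC.2- cells 1 after median centring and 0 after cyclic loess.

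The 10 measured enzymes of glutathione, taurine, creatine and betaine, cargo of Slc6 and Slc7 carriers or their product, had 7 lower and 3 higher in OC.2- than in adult cells (median -1.09), 7 lower and 1 higher in the OC.2+ than in the OC.2- cells (median -1.10), and 8 lower and 2 higher in OC.2+ than in adult cells (median -1.92). Cdo1, the cysteine dioxygenase that opens taurine synthesis, read 12.97, 12.67 and 12.75 in adult, 8.50, 8.87 and 8.29 in OC.2- and 6.16, 5.76 and 6.03 in OC.2+ preparations. It was 18.9-fold lower in OC.2- than in adult cells (limma adjusted p = 1.08e-10) and 5.94-fold lower in the OC.2+ than in the OC.2- cells (adjusted p = 1.28e-08). Csad, the next enzyme of that path, was 7.29-fold lower in OC.2- than in adult cells (limma adjusted p = 6.6e-10) and differed by -0.27 between the fetal groups (adjusted p = 0.0928), which was called without adult replicate 1 (0.031), in a fit of the fetal arrays alone (0.0305) and after cyclic loess (0.0281). Cdo1, Csad and the taurine pump Slc6a6 were thus each lower in both fetal groups than in adult cells. Gamt, which completes creatine, and Bhmt, which uses betaine, were 6.75-fold and 10.4-fold lower in the OC.2+ than in the OC.2- cells (limma adjusted p = 1.9e-10 and 6.33e-10).

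**Figure D3:**
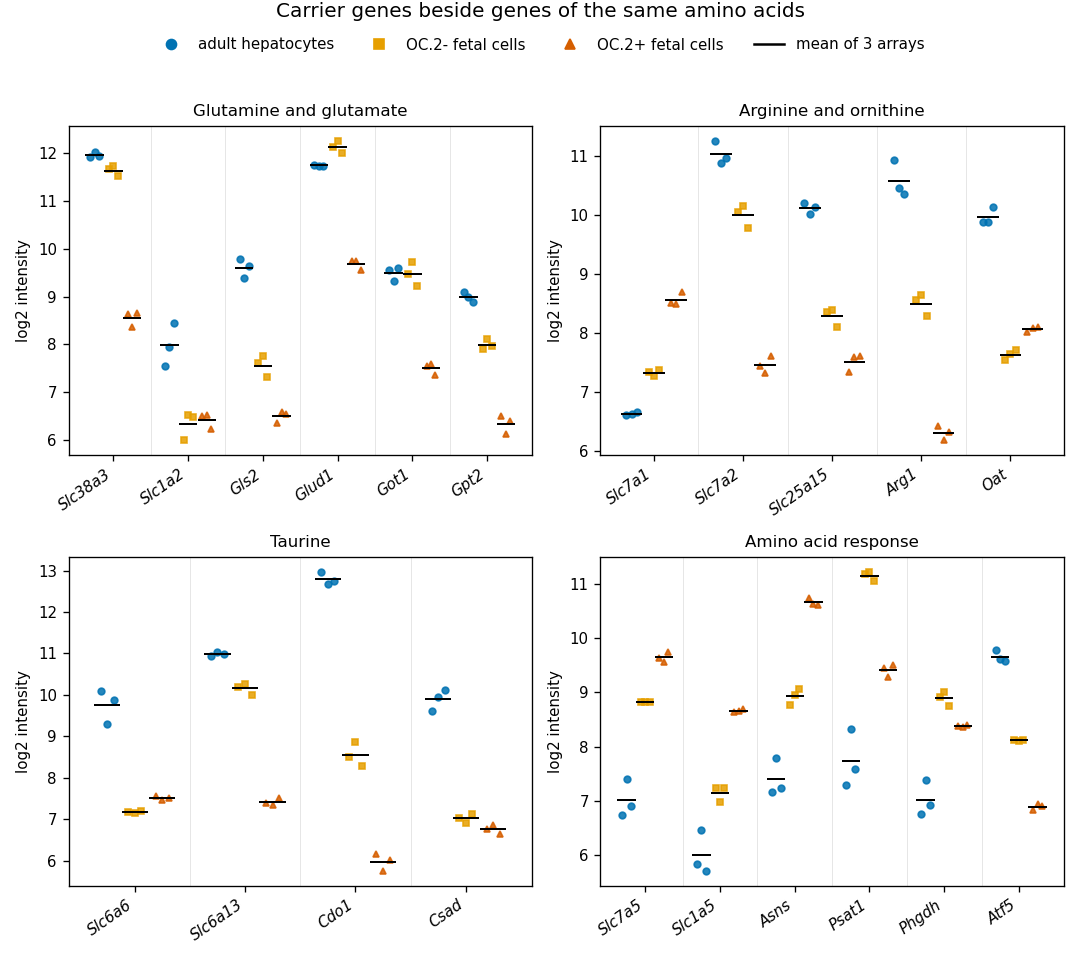
Log2 intensity on each of the 9 arrays for carriers beside enzymes of the same amino acids, in 4 panels (glutamine and glutamate, arginine and ornithine, taurine, amino acid response), with group means as black lines. In the taurine panel Slc6a6, Cdo1 and Csad are highest in the adult arrays, and in the response panel Slc7a5, Slc1a5 and Asns climb together while Atf5 drops.

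The genes listed for the amino acid response did not move one way. They are Eif2ak4, known targets of Atf4, and Atf4 itself, the factor that raises amino acid carriers and synthetic enzymes when amino acids are short. Of 25 measured, OC.2- cells had 10 higher and 8 lower than adult cells (median 0.20), 4 higher and 11 lower in the OC.2+ than in the OC.2- cells (median -0.13), and 8 higher and 9 lower in OC.2+ against adult cells (median -0.08). The last split was 5 and 13 after median centring and 6 and 13 after cyclic loess. Asns, asparagine synthetase, was 2.88-fold higher in OC.2- than in adult cells (limma adjusted p = 1.44e-06) and 3.32-fold higher in the OC.2+ than in the OC.2- cells (adjusted p = 4.37e-07), the order seen for Slc7a5 and Slc1a5. The serine synthesis enzymes Psat1 and Phgdh were highest in OC.2- cells, 10.7-fold and 3.66-fold above adult (limma adjusted p = 1.47e-08 and 1.36e-07). Cth, which makes cysteine, was 8.41-fold lower in the OC.2+ than in the OC.2- cells (limma adjusted p = 6.1e-10), and Atf5 was 2.33-fold lower (adjusted p = 3.43e-08). Atf4 itself was not called, with differences of 0.18, 0.09 and 0.27 in OC.2- against adult, OC.2+ against OC.2- and OC.2+ against adult (limma adjusted p = 0.24, 0.663 and 0.0769). After quantile normalization the first was 0.39 and the last 0.48 (adjusted p = 0.0192 and 0.00445), and the last was called without adult replicate 2 (0.36, 0.0319) or 3 (0.34, 0.047).

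Of 24 measured genes of lysosomal amino acid sensing and mTORC1, OC.2- cells had 1 higher and 8 lower than adult cells, 3 higher and 7 lower in the OC.2+ than in the OC.2- cells, and 4 higher and 11 lower in OC.2+ against adult cells, with medians of -0.14, 0.06 and -0.18. The 8 were 5 without adult replicate 1 or OC.2- replicate 3, and the 11 were 7 without adult replicate 1 or OC.2+ replicate 3. The 1 higher was lost without adult replicate 1 or 2 or OC.2- replicate 1, and the 4 were 2 without adult replicate 2 or OC.2+ replicate 1. Against adult, median centring gave 0 higher and 13 lower in OC.2- and 1 and 13 in OC.2+ cells, cyclic loess 0 and 10, and 2 and 13, and quantile normalization 2 and 8, and 3 and 8. The differences were small, the largest being Lamtor4, a part of the lysosomal anchor of mTORC1, which was 2.25-fold lower in OC.2+ than in adult cells (limma adjusted p = 1.03e-07). Of 22 measured amino acid and peptide carriers in other families, OC.2- cells had 4 higher and 6 lower than adult cells (all genes 23.7% and 20.9%). Between the fetal groups 2 were higher and 7 lower in OC.2+ cells (all genes 20.3% and 18.2%). In OC.2+ against adult cells 4 were higher and 6 lower (all genes 32.0% and 23.4%). The medians of these 22 were -0.05, -0.05 and 0.05 in the same order. Slc25a15, the mitochondrial ornithine carrier of the urea cycle, was 3.55-fold lower in OC.2- than in adult cells (limma adjusted p = 1.34e-08) and 1.71-fold lower in the OC.2+ than in the OC.2- cells (adjusted p = 4.4e-05). Slc16a10 (TAT1), which carries aromatic amino acids, was 2.71-fold higher in the OC.2+ than in the OC.2- cells (limma adjusted p = 1.44e-08).

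Of 8 measured partner and trafficking proteins, OC.2- cells had 1 higher and 3 lower than adult cells, 3 higher and 3 lower in the OC.2+ than in the OC.2- cells, and 2 higher and 4 lower in OC.2+ against adult cells, with medians of -0.18, 0.03 and -0.39. The 3 higher between the fetal groups were 1 without OC.2+ replicate 3, and the 2 higher in OC.2+ than adult cells were 1 without adult replicate 3, OC.2+ replicate 1 or OC.2+ replicate 3. The 1 higher in OC.2- than adult cells became 2 without OC.2+ replicate 1 or after quantile normalization, and the 2 in OC.2+ cells became 3 after quantile normalization and 1 after the other scalings. Nedd4l, a ubiquitin ligase that removes several carriers from the membrane, stepped down by 2-fold from adult to OC.2- and by 2.17-fold from OC.2- to OC.2+ cells (limma adjusted p = 1.8e-05 and 6.58e-06). Its relative Nedd4 was 1.84-fold higher in OC.2- and 1.98-fold higher in OC.2+ than in adult cells (limma adjusted p = 7.76e-07 and 1.21e-07).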

How the data were processed

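Affymetrix Rat ST 1.0 arrays measured RNA from 9 liver cell preparations, 1 array for each and 3 per group. The authors deposited linear intensities, and the submitters' processing notes name Partek 6.6 and RMA without a role or an order. RMA as usually run makes array distributions alike and shrinks differences of dim genes. A genome build and an annotation were not given in the sources. Of the 28826 deposited rows, the probe annotation gave 1 symbol to 15209, several to 306 and none to 13311. For 494 genes with several probe sets the one with the highest mean was used, which left 14497 genes with no dim filter. No row with 1 symbol named Slc6a12, and Slc6a20 is annotated as Slc6a20a.

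Log2 values were fitted in limma 3.58.1 (R 4.3.3; lmFit and eBayes, 1 mean per group over all 9 arrays, 6 residual degrees of freedom) with 2-sided tests and Benjamini-Hochberg adjustment over all genes. Errors are limma standard errors from the pooled spread, n = 3 per group, and the number of arrays limits the precision. The fit was tested on simulated data. The genes and lists were chosen with earlier results of these data known. Named genes were the 6 highest and 6 lowest called genes without overlap per comparison, carriers of known role in liver or blood cells, and up to 3 called genes of each other list per comparison; Atf4, Csad, Phgdh, Nedd4, Slc6a2, Slc6a4 and other list genes beyond that rule were chosen after their values were seen. Neither labels nor files name a batch. Alternatives were other scalings, dim filters, probe-set averaging, variance models, array weights, the replicate block, stricter thresholds and leaving out each array; running them for the other lists and for genes outside the naming rule was decided after seeing the data.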

Additional observations from a re-analysis of the deposited data

Results flagged for a closer look

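Slc1a4, Slc38a7, Slc43a3 and Slc6a9 were called in opposite directions in the 2 fetal groups when each was set against the same adult arrays, so the fetal groups were compared directly. Slc1a4 was 0.39 against adult in OC.2- and -0.62 in OC.2+ cells, a difference of -1.01 (limma adjusted p = 2.12e-05). For Slc38a7 the values were 0.22 and -0.60, a difference of -0.82 (limma adjusted p = 1.46e-06). Slc43a3 had -0.90 and 0.35, a difference of 1.25 (limma adjusted p = 3.52e-08), and Slc6a9 had -1.24 and 0.24, a difference of 1.48 (limma adjusted p = 6.89e-09). The smaller of each pair of values against adult cells is the one that lost its call under at least 1 other scaling. Groups of 3 arrays are too small for the outlier test.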

How the results depend on the processing

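No named gene that was called in a comparison changed direction under an alternative. Of 3228 values over 57 genes, 3078 stayed on their side of the threshold with their sign, 73 lost the call, 37 gained it and 40 changed sign, 0 of them called before or after (limma adjusted p under 0.05). The sign changes in OC.2- against adult were, after quantile normalization, Slc3a1 -0.079, Slc3a2 0.11 and Slc6a19 -0.097, after median centring Slc3a1 -0.087 and Slc6a19 -0.098, and after cyclic loess Slc3a1 -0.063 and Slc6a19 -0.078. In OC.2+ against adult they were, after quantile normalization, Slc1a6 -0.13, Slc1a7 -0.069, Slc38a2 0.017, Slc3a1 -0.082, Slc6a19 -0.021 and Slc7a7 -0.013, after median centring Slc1a6 -0.13, Slc1a7 -0.053, Slc36a1 -0.11, Slc3a1 -0.068 and Slc6a19 -0.010, and after cyclic loess Slc1a6 -0.15, Slc1a7 -0.070, Slc36a1 -0.088, Slc3a1 -0.075, Slc6a19 -0.031 and Slc7a7 -0.021. Between the fetal groups they were Slc3a1 after quantile normalization (-0.0029) and Slc3a1 and Slc1a6 after cyclic loess (-0.012 and -0.0062). With 1 array left out, values that changed sign ranged, between the fetal groups, over -0.081 to 0.18 (Slc1a2), -0.17 to 0.016 (Slc7a11), -0.039 to 0.13 (Slc1a6) and -0.071 to 0.11 (Slc3a1), in OC.2- against adult over -0.034 to 0.15 (Slc3a1) and -0.026 to 0.073 (Slc6a19), and in OC.2+ against adult over -0.028 to 0.18 (Slc3a1), -0.0065 to 0.044 (Slc36a1), -0.074 to 0.094 (Slc1a6) and -0.069 to 0.0085 (Slc43a2). The cause was not tested.

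The counts of called transporter genes stayed within 1.5 times of those reported, except that median centring gave 13 higher in OC.2- than in adult cells in place of 21, and that requiring a 2-fold change gave 7 higher and 5 lower between the fetal groups, 4 and 4 in OC.2- against adult and 9 higher in OC.2+ against adult. Leaving out each array in turn gave 13 to 17 higher and 8 to 9 lower between the fetal groups, 18 to 21 and 10 to 10 in OC.2- against adult, and 22 to 26 and 9 to 10 in OC.2+ against adult. Whether equal replicate numbers mark paired samples was not settled. Of 9 same-numbered pairs of arrays, 1 had deviations from group means correlated above 0.1 (range -0.226 to 0.106). Deviations within a group of 3 arrays sum to 0, so low correlations cannot exclude pairing. With the number as a replicate block the counts were 15 and 8 between the fetal groups. They were 19 and 10 in OC.2- against adult, and 25 and 9 in OC.2+ against adult. In that fit Slc38a2 (0.0573, between the fetal groups), Slc38a7 (0.0555) and Slc7a11 (0.0544, both OC.2- against adult) had limma adjusted p-values past 0.05. Array medians were higher in fetal than in adult preparations, so small differences from adult cells depend on the scaling, and dim genes are limited by background with no detection call.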

Other observations

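Adult replicate 2 read higher than adult replicates 1 and 3 for several genes of amino acid supply: Asns read 7.79 against 7.17 and 7.24, Psat1 8.33 against 7.29 and 7.58, and Phgdh 7.39 against 6.75 and 6.92. The carriers Slc1a5 (6.46 against 5.84 and 5.72) and Slc7a5 (7.40 against 6.74 and 6.91) did so too, while the taurine pump Slc6a6 was lowest on that array (9.30 against 10.09 and 9.87). These genes were picked after their values were seen.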
